A study of Homo sapiens with 6 samples.

Results

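Mitochondrial ribosomal protein genes were followed in MDA-MB-436, a triple-negative breast cancer cell line with a BRCA1 mutation. Members were all rows of the deposited count table whose symbol was MRPL (large subunit) or MRPS (small subunit) with a number and at most 1 letter A, B or C. This rule, which uses names only, gave 78 of 37887 rows, of which 49 were large subunit and 29 small subunit genes. Every cell in the series carried a tet-inducible MUC1 shRNA in the vector pLKO-tet-puro. The 3 control libraries came from cells given 0.1% DMSO, and the 3 shMUC1 libraries from cells given 500 ng/ml doxycycline. Sample titles name the controls as a control shRNA, whereas their treatment labels and the design text describe vehicle on the same inducible cells, and the latter reading was used. The length of treatment is not given for this line, and no doxycycline-treated library with another shRNA was analysed here. Doxycycline and MUC1 silencing therefore cannot be told apart in any value that follows.

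The mitoribosome is the ribosome inside mitochondria. It makes the few respiratory chain and ATP synthase proteins that mitochondrial DNA encodes, on a scaffold of mitochondrially encoded rRNA. Its proteins are encoded in the nucleus, made in the cytosol and imported, and some descend from bacterial ribosomal proteins while others are found only in mitochondria. Doxycycline, like other tetracyclines, blocks bacterial ribosomes and is known to inhibit mitochondrial translation, which is why these genes are of interest where doxycycline is the inducer.

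Libraries held 18678307 to 27825546 counts. MUC1 had 93, 84 and 102 counts in control and 72, 51 and 34 in shMUC1 libraries, and the gene targeted by the shRNA was lower in shMUC1 (log2 fold change -0.84, SE 0.214, edgeR adjusted p 0.00119). Here and below, adjusted p is from the quasi-likelihood test of edgeR, corrected by Benjamini-Hochberg over all genes tested. VIM and CD44, which mark mesenchymal-like breast lines, summed to 2400 to 2486 CPM (counts per 1000000 counts) in control and 1905 to 1980 CPM in shMUC1 libraries. Both were called lower in shMUC1. VIM went from a mean of 717 CPM in control to 417 CPM in shMUC1 (log2 fold change -0.78, SE 0.0349, edgeR adjusted p 2.1e-20). For CD44 the log2 fold change was -0.16 (SE 0.0256, edgeR adjusted p 1.36e-06). Of 5 epithelial markers, EPCAM and CDH1 rose while KRT19, GRHL2 and RAB25 stayed at 0 to 4 counts, and their sum went from 3.28 to 4.47 CPM in control to 19.8 to 21.2 CPM in shMUC1. The 4 leukocyte markers summed to at most 1.09 CPM and the 2 endothelial markers to at most 2.05 CPM in any library. At these low levels PTPRC was called higher (log2 fold change 1.59, SE 0.523, edgeR adjusted p 0.0113). PECAM1 was called lower (log2 fold change -1.94, SE 0.438, edgeR adjusted p 0.00032). ESR1 and PGR had at most 12 counts. ERBB2, at 715 to 1142 counts, was called lower (log2 fold change -0.20, SE 0.0613, edgeR adjusted p 0.0074). Whether the shifts in these markers have a part in the results below was not tested. In RNA from a whole culture, fewer cells of a kind and less RNA per cell cannot be told apart.

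Mitochondrial ribosomal protein transcripts were mostly a little higher in shMUC1 than in control cells. At an adjusted p under 0.05, 36 of the 77 tested members were higher (46.8%) and 4 were lower (5.19%), beside 25.2% higher and 23.6% lower among all 15355 tested genes. The median log2 fold change was 0.15 over members, an increase of 11.3%, and 0.00058 over all tested genes. Of the 77 members, 60 had a fold change above 0 and 17 below. Changes were small throughout, from -0.62 to 0.48 on the log2 scale, and 0 members passed a fold change of 2, where 5.95% of all tested genes did. In 38 members all 3 shMUC1 libraries lay above every control library in CPM (28.1% of all genes), and in 4 members all lay below (26.8% of all genes). The remaining 35 tested members overlapped between groups. The plot of fold changes by member shows every tested gene with its error.

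**Figure D1:**
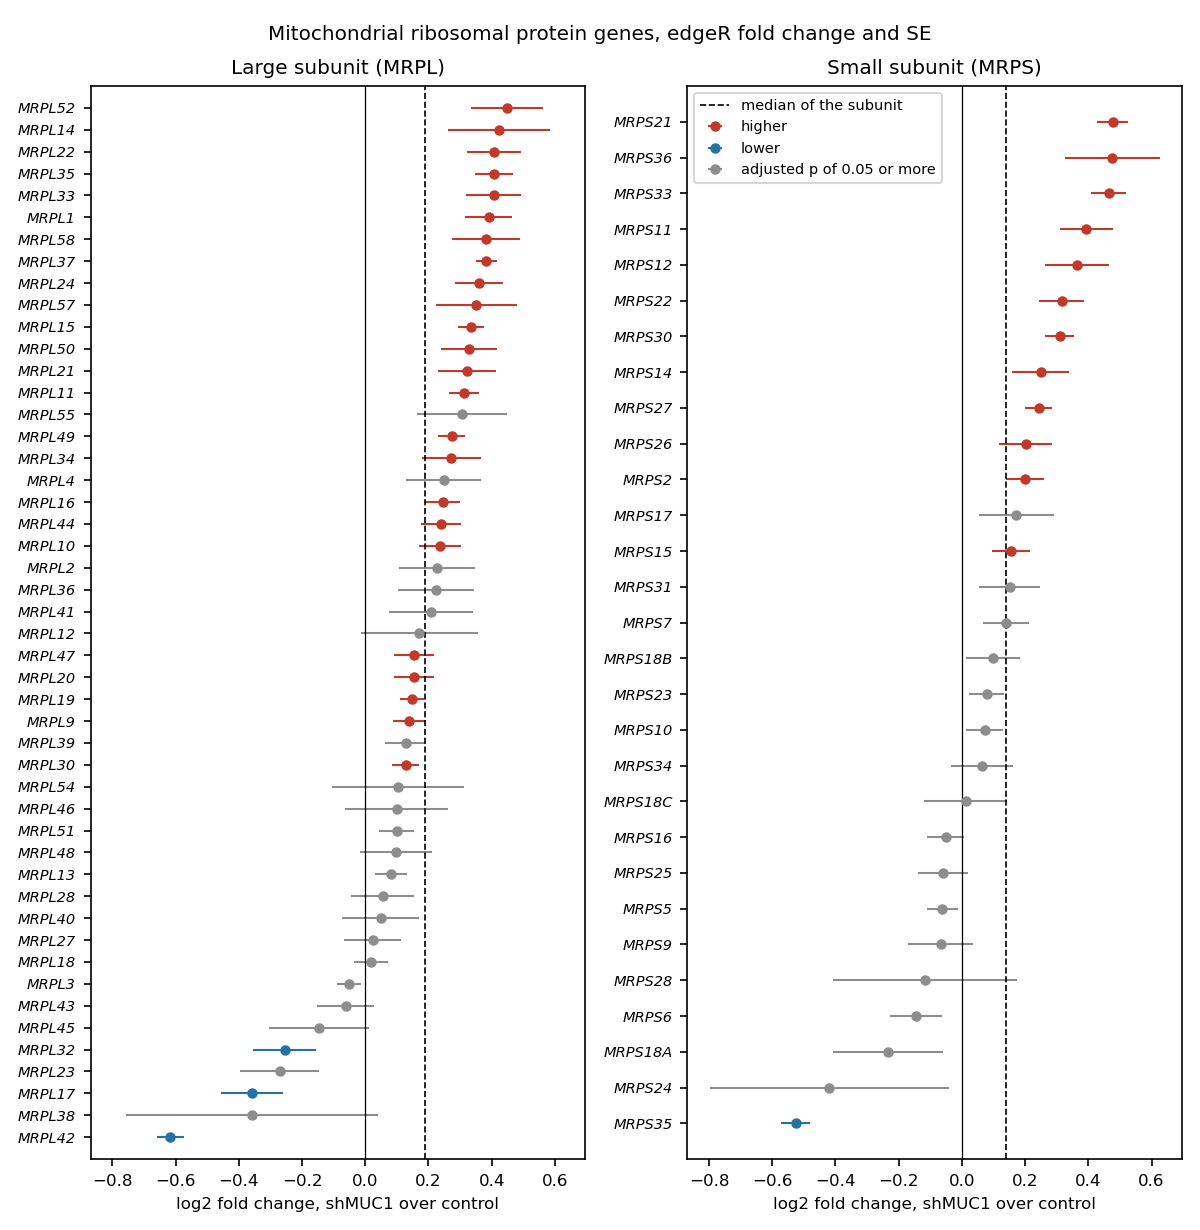
Log2 fold change of shMUC1 over control (x axis) for each tested mitochondrial ribosomal protein gene (y axis), 48 of the large subunit on the left and 29 of the small subunit on the right. Points are edgeR estimates, bars are 1 SE, colour marks the call at an adjusted p under 0.05 and the dashed line is the subunit median, 0.19 for large and 0.14 for small. Most points sit right of 0, with MRPL42 and MRPS35 farthest to the left among the called genes.

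Large subunit genes were compared with small subunit genes as the rule asks. Of 48 tested large subunit genes, 24 were higher (50%) and 3 lower (6.25%), beside 25.2% and 23.6% of all tested genes. The large subunit median was 0.19 on the log2 scale, with quartiles of 0.07 and 0.32. Of 29 small subunit genes, 12 were higher (41.4%) and 1 lower (3.45%), with a median of 0.14 and quartiles of -0.06 and 0.25. The medians differed by 0.049, and leaving out single libraries gave differences between 0.016 (without control replicate 1) and 0.11 (without control replicate 3). The SD between libraries, pooled over both groups, was 0.033. It was 0.00144 in control, whose values enter the mean they are set against, and 0.0466 in shMUC1, close to the difference itself. Without shMUC1 replicate 3 the difference was 0.096. Taken within libraries, relative to the control mean, the large minus the small median was -0.00836 ± 0.00144 (SD, n = 3) in control and 0.0743 ± 0.0466 (SD, n = 3) in shMUC1. The groups did not overlap, though control values lie near 0 because they enter that mean. The difference between subunits kept its sign but not its size, and it is given as a description. The cumulative plot sets both subunits beside all tested genes.

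**Figure D2:**
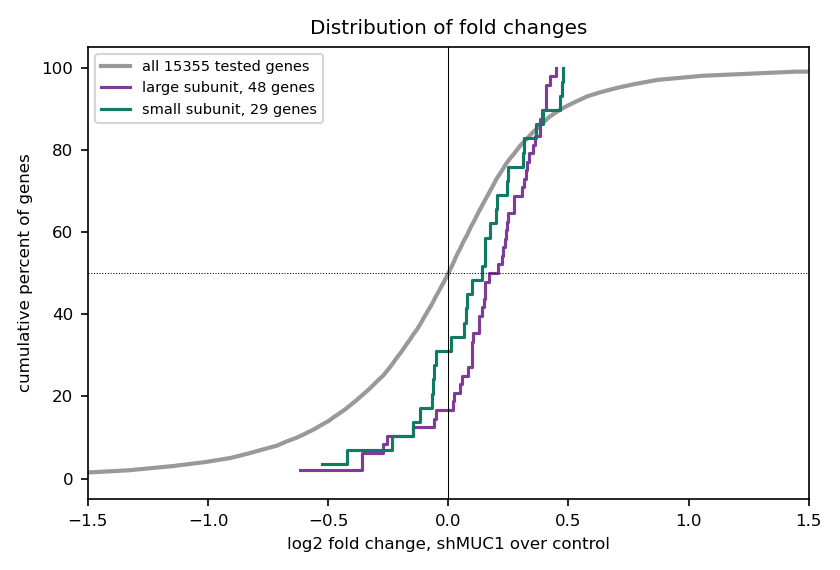
Cumulative percent of genes (y axis) by log2 fold change of shMUC1 over control (x axis) for 48 large subunit genes, 29 small subunit genes and all 15355 tested genes. Both subunit curves lie to the right of the curve of all genes up to a log2 fold change of about 0.3 and end below 0.5, whereas the curve of all genes runs on in both directions.

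Summed over their genes, large subunit transcripts amounted to 1985, 1958 and 1955 CPM in control and 2196, 2179 and 2143 CPM in shMUC1 libraries. All 3 shMUC1 libraries lay above every control library, with a rise of 10.5% in the mean. Small subunit transcripts summed to 991, 993 and 1011 CPM in control and 1092, 1086 and 1084 CPM in shMUC1 libraries, a rise of 8.9% with no overlap. The ratio of the large to the small sum was 1.97 ± 0.0351 (SD, n = 3) in control and 1.999 ± 0.0187 (SD, n = 3) in shMUC1, and these values overlapped. Both subunits together took 0.299% ± 0.00267 (SD, n = 3) of counts in control, and in shMUC1 0.324% ± 0.00276 (SD, n = 3). Transcripts encoded in mitochondria went from 3.74% ± 0.415 (SD, n = 3) to 5.10% ± 0.139 (SD, n = 3) of counts. With those genes left out of the table, the same numbers of members, 36 and 4, were higher and lower.

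**Figure D3:**
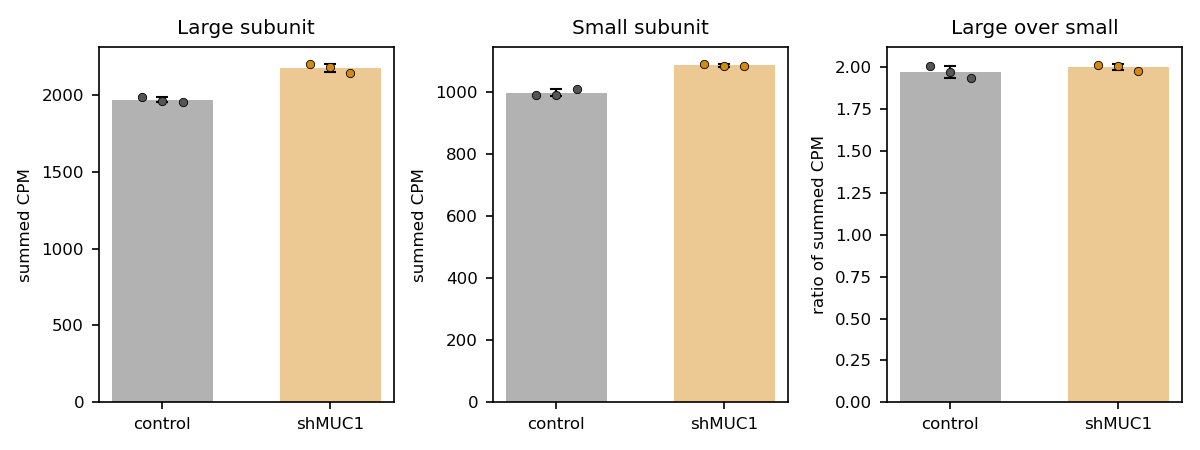
Summed CPM of the large subunit genes (left), of the small subunit genes (middle) and the ratio of the sums (right) in control and shMUC1 libraries. Bars are means, error bars are 1 SD, points are the 3 libraries of a group, and all axes start at 0. Both sums are higher in every shMUC1 library than in any control library, while the ratios, with genes placed by symbol, overlap.

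Symbols do not always match position in the ribosome. MRPS30 and MRPS18A, named for the small subunit, sit in the large subunit of the human mitoribosome, and MRPS36 is known as a part of the 2-oxoglutarate dehydrogenase complex and not of the ribosome. With genes placed by structure, 25 of 50 tested large subunit genes and 10 of 26 small subunit genes were higher. Among all tested genes the share higher was 25.2%. The subunit medians by structure were 0.19 and 0.12. Placed so, the ratio of the large to the small sum was 2.31 ± 0.0263 (SD, n = 3) in control and 2.39 ± 0.0326 (SD, n = 3) in shMUC1, and these values did not overlap, unlike the ratio by symbol. MRPS30 rose from 85.2, 97.6 and 98.4 CPM in control to 118, 118 and 113 CPM in shMUC1 libraries, without overlap (log2 fold change 0.31, SE 0.0467, edgeR adjusted p 7.37e-07). MRPS18A measured 4.74, 5.41 and 3.87 CPM in control and 3.94, 3.84 and 4.14 CPM in shMUC1, and did not pass the test (log2 fold change -0.24, SE 0.174, edgeR adjusted p 0.278). Of its exon bases, 47.0% also lie in RSPH9 on the other strand.

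By a list written from general knowledge, 46 members were taken as conserved from bacteria and 31 others as mitochondria-specific. MRPS18A and MRPS18B, paralogs of bacterial S18, were counted among the 31, so this split is not strictly one of descent. Of the 46, 23 were higher (50%) and 2 lower (4.35%), and their median was 0.16 on the log2 scale. The shares over all tested genes were 25.2% higher and 23.6% lower. Of the 30 mitochondria-specific members tested, 12 were higher and 2 lower, with a median of 0.12. Split by subunit as the symbols name it, 17 of 30 conserved large subunit genes were higher (median 0.22). So were 6 of 16 conserved small subunit genes (median 0.11). The mitochondria-specific genes gave 7 of 18 in the large subunit (median 0.12) and 5 of 12 in the small subunit (median 0.12). MRPS30 and MRPS18A, which sit in the large subunit, are among these 12. These medians are descriptions, and the differences between them were not tested.

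Among the largest rises, MRPS21, a counterpart of the bacterial protein S21, went from 61.0, 63.8 and 63.2 CPM in control to 90.2, 82.9 and 88.8 CPM in shMUC1 libraries. All shMUC1 values were above all control values, and the log2 fold change was 0.48 (SE 0.0485, edgeR adjusted p 1.55e-10). MRPS33, a mitochondria-specific protein of the small subunit, measured 47.9, 47.7 and 50.9 CPM in control and 72.0, 64.8 and 65.3 CPM in shMUC1 (log2 fold change 0.46, SE 0.0551, edgeR adjusted p 5.42e-09). MRPS36, the dehydrogenase subunit, measured 4.74, 4.92 and 5.49 CPM in control and 8.21, 6.83 and 5.91 CPM in shMUC1 (log2 fold change 0.48, SE 0.15, edgeR adjusted p 0.00834). Its 3 shMUC1 values spread more widely than those of MRPS21, and without shMUC1 replicate 1 the adjusted p was 0.106.

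In the large subunit, the mitochondria-specific MRPL52 had the largest rise. It measured 10.2, 8.41 and 9.01 CPM in control and 13.4, 12.5 and 11.6 CPM in shMUC1, without overlap (log2 fold change 0.45, SE 0.114, edgeR adjusted p 0.00118). MRPL14, which lies at the interface between subunits and is where the assembly factor MALSU1 binds, measured 3.46, 5.05 and 4.80 CPM in control and 6.11, 5.74 and 6.07 CPM in shMUC1. Its log2 fold change was 0.42 (SE 0.162, edgeR adjusted p 0.029), and control replicate 1 was low. Leaving out that library gave 0.28 and an adjusted p of 0.176, and the call was also lost without shMUC1 replicate 1 or 3. DESeq2 (DESeq2 adjusted p 0.0562) and edgeR on libraries drawn down (edgeR adjusted p 0.0902) did not call MRPL14 either. MRPL35, a counterpart of bacterial L35, measured 38.9, 36.7 and 38.4 CPM in control and 50.3, 48.2 and 52.8 CPM in shMUC1 (log2 fold change 0.41, SE 0.060, edgeR adjusted p 4.66e-07). MRPL33, a counterpart of bacterial L33, went from 17.0, 15.3 and 17.0 CPM to 21.0, 21.5 and 22.9 CPM (log2 fold change 0.41, SE 0.0876, edgeR adjusted p 0.000188). Both genes separated the groups, and MRPL33 shares 21.1% of its exon bases with BABAM2 on the same strand.

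**Figure D4:**
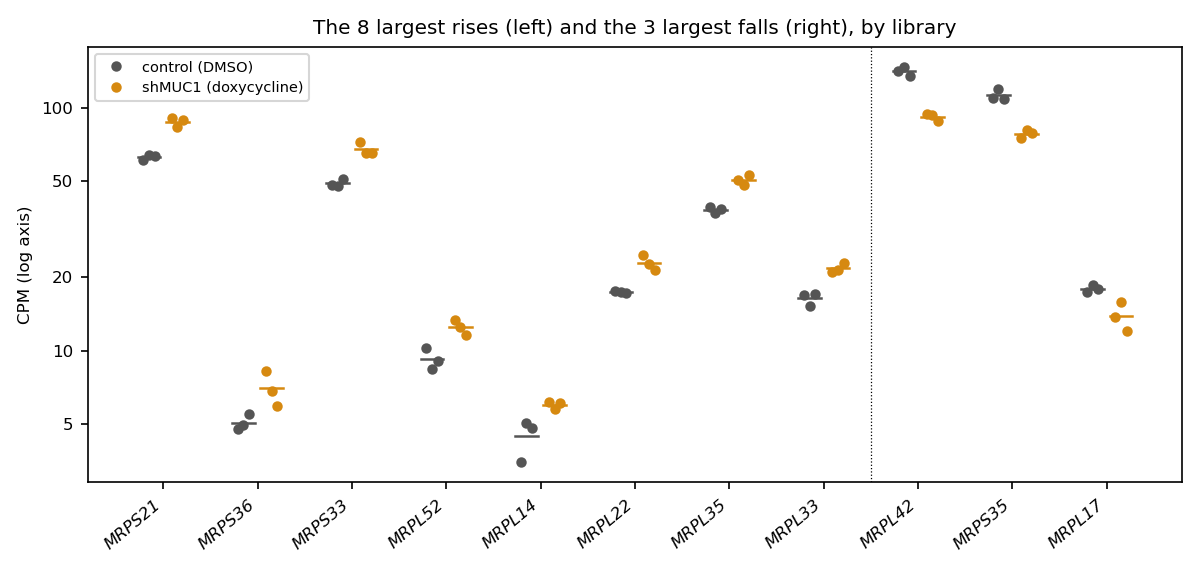
CPM on a log axis (y axis) for the 8 members with the largest rises and the 3 with the largest falls among called members whose groups did not overlap (x axis). Points are the 3 control and the 3 shMUC1 libraries and short lines are group means. The shMUC1 points lie above the control points for MRPS21 to MRPL33 and below them for MRPL42, MRPS35 and MRPL17.

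Only 4 members fell, and they are described one by one. MRPL42, a mitochondria-specific protein of the large subunit, measured 141, 147 and 135 CPM in control and 94.3, 93.3 and 87.7 CPM in shMUC1 libraries. It had the largest change of any member, a log2 fold change of -0.62 (SE 0.0429, edgeR adjusted p 7.87e-15), with no overlap between groups. MRPS35, a mitochondria-specific protein of the small subunit, measured 110, 119 and 108 CPM in control and 75.1, 80.7 and 78.3 CPM in shMUC1 (log2 fold change -0.53, SE 0.0457, edgeR adjusted p 3.18e-12). MRPL17, a counterpart of bacterial L17, which lies near the peptide exit, went from 17.5, 18.5 and 17.8 CPM to 13.8, 15.9 and 12.1 CPM (log2 fold change -0.36, SE 0.0991, edgeR adjusted p 0.00276). These 3 genes separated the groups. MRPL32, which is matured by a mitochondrial protease before it joins the ribosome, measured 20.5, 18.1 and 15.7 CPM in control and 14.7, 15.9 and 14.9 CPM in shMUC1, so that the groups overlapped (log2 fold change -0.26, SE 0.0983, edgeR adjusted p 0.0301). Its call was lost without control replicate 1 (adjusted p 0.239), control replicate 2 (0.0575), shMUC1 replicate 1 (0.104) or shMUC1 replicate 3 (0.0768).

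MRPL42 and MRPS35 were also among the more abundant members, so the falls weighed on the sums. Without MRPL42 the large subunit sum rose by 14.0%, and the ratio of large to small was 1.83 ± 0.0306 (SD, n = 3) in control and 1.91 ± 0.0157 (SD, n = 3) in shMUC1, without overlap. Without the 6 members listed next, the rises were 14.6% for the large and 14.0% for the small subunit, and the ratios overlapped again.

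The 3′ untranslated regions (3′ UTRs) of the members were searched for the 7-base word ATCAGTA, which an earlier analysis of these same data had tied to lower expression. It is therefore no independent evidence, and the values are a description. Annotated 3′ UTRs of 6 members held the word, among them all 4 members that fell. The others were MRPL50, which rose, and MRPS31, which was not called. Each site is given in its transcript's direction from GENCODE release 29 (GRCh38), with the word in capitals, to show how the flanking bases differ.
MRPL42, chr12:93503049-93503073, plus strand: ttatccaccATCAGTAacattttat
MRPS35, chr12:27755492-27755516, plus strand: atatatgtgATCAGTAtctaatttg
MRPL17, chr11:6682075-6682099, minus strand: cagcccttaATCAGTAcccatgatc
MRPL32, chr7:42937659-42937683, plus strand: ttttaaatcATCAGTAtagtttaac
MRPL50, chr9:101388656-101388680, minus strand: tgcacatccATCAGTAcctctagag
MRPS31, chr13:40729178-40729202, minus strand: agaaaaatcATCAGTAttcataggt
In MRPL42 the word lies in 1 of 5 annotated transcripts with a 3′ UTR, and in MRPS35 in 3 of 3. The other 4 genes have 1 such transcript each, and it holds the word.

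Members with the word had a median of -0.31 on the log2 scale. The 10 members with only its 6-base core TCAGTA had a median of 0.19, with 6 higher and 0 lower. Among the 61 tested members without the core, the median was 0.17, with 29 higher and 0 lower. By DESeq2 and limma-voom 0 members of either set were lower, and at an unadjusted edgeR p under 0.05 only MRPL23, of the set without the core, was. Over all 13023 tested genes with a 3′ UTR, the word was held by 12.8%, of which 43.2% were lower and 20.7% higher. Among all genes with only the core 28.8% were lower and 26.7% higher, and among genes without the core 19.7% were lower and 29.9% higher. MRPL50, a mitochondria-specific protein of the large subunit, was the only holder called higher. It measured 18.5, 17.7 and 16.8 CPM in control and 23.9, 22.2 and 20.1 CPM in shMUC1, without overlap (log2 fold change 0.33, SE 0.0876, edgeR adjusted p 0.00194). MRPS31 measured 18.4, 17.8 and 15.4 CPM in control and 17.0, 21.3 and 18.8 CPM in shMUC1, and the groups overlapped (log2 fold change 0.15, SE 0.0966, edgeR adjusted p 0.203). The word was thus present in members that fell, rose and were not called.

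By role, the stalk that recruits translation factors was examined first. MRPL11, at the base of the stalk, measured 68.0, 68.6 and 66.9 CPM in control and 83.1, 81.7 and 88.6 CPM in shMUC1 (log2 fold change 0.31, SE 0.0475, edgeR adjusted p 7.75e-07). MRPL10, which anchors the stalk, went from 32.4, 31.6 and 30.5 CPM to 38.3, 37.1 and 35.7 CPM (log2 fold change 0.24, SE 0.0663, edgeR adjusted p 0.00319). MRPL12, the stalk protein itself, measured 3.10, 3.28 and 3.87 CPM in control and 3.62, 4.19 and 3.76 CPM in shMUC1, where the groups overlapped (log2 fold change 0.17, SE 0.186, edgeR adjusted p 0.476). The first pair separated the groups, and for MRPL12 68.2% of exon bases are shared with AC139530.2 on the same strand, which leaves its count uncertain.

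Proteins of the conserved core near the catalytic centre, MRPL2, MRPL3 and MRPL4, gave 0 calls by edgeR, DESeq2 or limma-voom. By edgeR 25.2% of all tested genes were higher and 23.6% lower, so 0 of 3 says little. In this set MRPL4 alone had an unadjusted p under 0.05. MRPL2 measured 9.11, 7.71 and 8.28 CPM in control and 10.4, 9.58 and 9.29 CPM in shMUC1 (log2 fold change 0.23, SE 0.120, edgeR adjusted p 0.121). MRPL4 measured 8.16, 7.79 and 8.01 CPM in control and 9.73, 9.58 and 9.08 CPM in shMUC1 (log2 fold change 0.25, SE 0.120, edgeR adjusted p 0.0853). In both, every shMUC1 library was above every control library although the test was not passed. With a GC content and length trend removed, MRPL4 was called higher (log2 fold change 0.32, edgeR adjusted p 0.0239). MRPL3 measured 239, 243 and 217 CPM in control and 229, 218 and 228 CPM in shMUC1, with overlap (log2 fold change -0.051, SE 0.0382, edgeR adjusted p 0.28). At this abundance the SE was small. It was called lower without control replicate 3 (log2 fold change -0.11, edgeR adjusted p 0.0102) and after the same trend was taken out (log2 fold change -0.12, edgeR adjusted p 0.006).

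Around the exit tunnel, through which new proteins leave toward the inner membrane, 3 of 5 members rose (60%, beside 25.2% of all tested genes). MRPL22, in the tunnel wall, measured 17.5, 17.4 and 17.2 CPM in control and 24.8, 22.7 and 21.4 CPM in shMUC1 (log2 fold change 0.41, SE 0.0854, edgeR adjusted p 0.000128). MRPL24 went from 23, 21.5 and 25 CPM to 29.6, 28.6 and 31.2 CPM (log2 fold change 0.36, SE 0.0770, edgeR adjusted p 0.000165), and MRPL44 from 43.7, 39.9 and 37.2 CPM to 47.4, 47.6 and 47.3 CPM (log2 fold change 0.24, SE 0.0623, edgeR adjusted p 0.00153). The groups of these genes did not overlap. MRPL23 measured 8.11, 9.93 and 9.98 CPM in control and 8.14, 7.76 and 7.30 CPM in shMUC1 (log2 fold change -0.27, SE 0.125, edgeR adjusted p 0.0716), and was called lower without control replicate 1 (adjusted p 0.0279). MRPL45, which faces the membrane, varied widely within groups, from 6.75 to 11.9 CPM in control and from 6.21 to 10.3 CPM in shMUC1 (log2 fold change -0.15, SE 0.159, edgeR adjusted p 0.478). Its annotated pseudogenes held 23.6% of their joint counts, so reads may have been divided between copies.

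In the small subunit, MRPS12, at the decoding centre, measured 11.8, 11.1 and 11.9 CPM in control and 15.4, 14.3 and 15 CPM in shMUC1, without overlap (log2 fold change 0.36, SE 0.101, edgeR adjusted p 0.00287). MRPS5, on the path by which mRNA enters, measured 69.4, 68.8 and 66.7 CPM in control and 66.4, 65.9 and 63.8 CPM in shMUC1. These values did not overlap, yet the change of -0.06 (SE 0.0490) did not pass the test (edgeR adjusted p 0.311). MRPS24, on the same path, had only 24, 31 and 25 counts in control and 30, 22 and 9 in shMUC1, and a change of this size was not detectable at that depth (log2 fold change -0.42, SE 0.378, edgeR adjusted p 0.38). It shares 23.2% of its exon bases with the readthrough gene URGCP-MRPS24, which had 0 counts in every library. MRPS7 and MRPS9, of the head of the subunit, had log2 fold changes of 0.14 (SE 0.0734) and -0.07 (SE 0.104), and neither was called. The paralogs of bacterial S18 gave 0 calls of 3 by edgeR, DESeq2 and limma-voom alike, and 0 at an unadjusted p under 0.05. With 25.2% of all tested genes higher and 23.6% lower by edgeR, 0 of 3 says little here too. MRPS18B, which sits in the small subunit, and MRPS18C, the closest counterpart of S18, had changes of 0.10 (SE 0.0849) and 0.012 (SE 0.13).

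Levels per kilobase of merged exons spanned a wide range in control cells, from 0.273 to 88.3 CPM per kb with a median of 8.46. The length joins the exons of all annotated transcripts of a gene, 16393 bases for MRPL42, so these levels compare genes only roughly. MRPL15 (88.3), MRPL37 (88.1) and MRPL3 (85.8) were highest, and since MRPL3 alone ran from 217 to 243 CPM between control libraries, their order in control is not settled. The next member, MRPS35, stood at 56.7 CPM per kb in control. MRPL15, a conserved core protein, measured 104, 105 and 107 CPM in control and 137, 130 and 132 CPM in shMUC1 (log2 fold change 0.33, SE 0.0401, edgeR adjusted p 6.88e-09). MRPL37, which is mitochondria-specific, went from 228, 219 and 226 CPM to 293, 296 and 288 CPM, without overlap (log2 fold change 0.38, SE 0.0332, edgeR adjusted p 3.16e-12). In shMUC1 cells MRPL37 stood at 115, MRPL15 at 111 and MRPL3 at 82.8 CPM per kb.

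The lowest tested members were MRPL38 (0.273 CPM per kb in control), MRPS24 (0.425) and MRPL46 (0.749). All of them share exon bases with another annotated gene on the same strand, at 37.5%, 23.2% and 11.3% of their length. Such sharing was found in 16 members. Among these were MRPL30 (19.5%) at 33.3 and MRPL33 (21.1%) at 10.7 CPM per kb in control, and whether sharing bears on the level was not tested. Reads from shared bases fit more than 1 gene, and how they were counted is not given in the sources used here. MRPL38 had 13, 36 and 24 counts in control and 27, 18 and 12 in shMUC1, which allowed no call (log2 fold change -0.36, SE 0.399, edgeR adjusted p 0.487). MRPL46 measured 4.15, 5.09 and 5.22 CPM in control and 5.75, 5.32 and 4.35 CPM in shMUC1, with overlap (log2 fold change 0.10, SE 0.163, edgeR adjusted p 0.649). MRPL53, at chr2:74471958-74473322 on the minus strand, had 0 counts in all 6 libraries, below a floor of 3 counts or at most 0.161 CPM, and was the only member not tested. It shares 45.2% of its exon bases with CCDC142 on the same strand, which had 144 to 271 counts. The 1 annotated pseudogene of MRPL53 in the count table held 37 counts, so reads may have gone to that copy.

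Calls were more frequent among abundant members. Of 22 members with a mean under 300 counts, 4 were higher, against 11.9% of all genes in that range. Of 29 members between 300 and 1000 counts, 16 were higher (28.9% of all genes), and of 26 with more, 16 were higher (39.4% of all genes). The median fold changes of the 3 ranges were alike, at 0.14, 0.15 and 0.15 on the log2 scale. In 37 members with no annotated exon overlap, 19 were higher (51.4%) and 2 lower (5.41%), where 25.2% and 23.6% of all tested genes were. The median of the 37 was 0.22, beside 0.14 over the 40 tested members with an overlap. Across the 77 tested members, fold change followed GC content (Spearman's rho -0.0125), exon length (-0.131) and mean count (0.113) only weakly. Genes are not independent replicates, and these 3 values share the same libraries.

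Promoters of nuclear genes for mitochondrial proteins often bind NRF1, ETS-family factors such as GABPA, and YY1. RefSeq windows (GRCh38.p14) from 250 bases before to 50 bases after the start were found for 69 members and searched on both strands for GCATGCGC (NRF1), CCGGAAG (ETS) and AAGATGGCG (YY1). ETS letters stood in 43.5% of member windows and in 21.3% of those of 11187 tested genes. YY1 letters stood in 18.8% of member windows and 4.37% of those of tested genes, and NRF1 letters in 8.7% and 6.28%. Large and small subunit genes were alike in this, with ETS letters in 18 of 42 and 12 of 27 windows. Tested members with ETS letters had a median log2 fold change of 0.099 (12 of 29 higher, 0 lower), and those without had 0.20 (19 of 39 higher, 4 lower). With NRF1 letters the median was 0.055 (2 of 6 higher, 2 lower), and without them 0.15 (29 of 62 higher, 2 lower). With YY1 letters it was 0.098 (4 of 13 higher, 2 lower), and without them 0.15 (27 of 55 higher, 2 lower). Among all tested genes 25.2% were higher and 23.6% lower. Of the members that fell, MRPL32 held NRF1 and YY1 letters, MRPL17 NRF1 letters, MRPL42 YY1 letters and MRPS35 none of them. A match is no proof of binding, and its absence says only that these letters are not in the window.

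MRPL52, with the largest rise of the large subunit, was the only member with all 3 motifs in its window. Whether they have a part in its rise was not tested, and the window is printed to show their spacing. The letters of NRF1, 2 copies of YY1 and ETS (as its reverse complement CTTCCGG) are in capitals, at bases 76, 153, 187 and 246.
MRPL52 promoter, chr14:22829637-22829936, plus strand: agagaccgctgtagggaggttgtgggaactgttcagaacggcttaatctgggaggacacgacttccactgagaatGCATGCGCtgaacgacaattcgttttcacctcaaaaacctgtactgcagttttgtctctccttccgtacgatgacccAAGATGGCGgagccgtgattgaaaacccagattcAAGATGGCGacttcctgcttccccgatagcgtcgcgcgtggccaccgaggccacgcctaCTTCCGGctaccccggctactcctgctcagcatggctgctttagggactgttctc
MRPS11 and MRPL46 lie head to head, and their windows share 181 bases at chr15:88467458-88467638. MRPS11, a counterpart of bacterial S11, measured 21.1, 17.9 and 22.4 CPM in control and 27.0, 26.0 and 27.8 CPM in shMUC1, without overlap (log2 fold change 0.39, SE 0.0836, edgeR adjusted p 0.00015). Its neighbour MRPL46 was not called, as given above, and the difference between them was not tested.

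The mitoribosome also holds proteins whose symbols lack MRP, and 4 of 5 rose (80%, beside 25.2% of all tested genes). CHCHD1 measured 14.2, 16 and 14.5 CPM in control and 18.6, 21.4 and 19.4 CPM in shMUC1 (log2 fold change 0.41, SE 0.0928, edgeR adjusted p 0.000357). PTCD3, which lies where mRNA enters, went from 165, 158 and 156 CPM to 195, 198 and 191 CPM (log2 fold change 0.29, SE 0.0367, edgeR adjusted p 2.86e-08). GADD45GIP1, a large subunit protein near the tunnel exit, and AURKAIP1, of the small subunit, had log2 fold changes of 0.32 (SE 0.107) and 0.22 (SE 0.0844). The AURKAIP1 groups overlapped, and its call was lost in 5 of 17 other fits. Among them were the fits without control replicate 1 or 2 or shMUC1 replicate 2 or 3, with adjusted p from 0.07 to 0.154. The GADD45GIP1 call was lost without control replicate 2 or shMUC1 replicate 1, at 0.0992 and 0.0771. DAP3, a GTP-binding protein of the small subunit, measured 74.1, 80.3 and 82.7 CPM in control and 80.4, 79.7 and 80.8 CPM in shMUC1, and was not called (log2 fold change 0.021, SE 0.0476).

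Assembly factors of the mitoribosome gave 7 higher and 1 lower of 26, and the median change was 0.11 on the log2 scale. That is 26.9% higher and 3.85% lower, where 25.2% and 23.6% of all tested genes were, so the share higher is near the background. YBEY, an RNA endonuclease, had the largest rise (0.43, SE 0.156, edgeR adjusted p 0.0209), a call lost without control replicate 1 (0.101) or shMUC1 replicate 2 (0.063). MTERF4, which recruits an rRNA methyltransferase, had the lowest value (-0.26, SE 0.113, edgeR adjusted p 0.0524), and was called lower in 8 of 17 other fits, with adjusted p from 0.0266 to 0.0498, among them without control replicate 2 (0.0373) or shMUC1 replicate 3 (0.0266). Translation factors gave 4 higher and 4 lower of 16, with a median of -0.021, and both shares, 25%, are near those of all tested genes. GFM1, the elongation factor G of mitochondria, measured 106, 97.1 and 105 CPM in control and 135, 128 and 138 CPM in shMUC1 (log2 fold change 0.38, SE 0.0429, edgeR adjusted p 1.95e-09). GFM2, a related factor that acts in ribosome recycling, measured 59.7, 64.9 and 55.4 CPM in control and 39.7, 46.1 and 44.3 CPM in shMUC1 (log2 fold change -0.47, SE 0.0626, edgeR adjusted p 6.17e-08). This pair of related factors thus went in opposite directions, without overlap in either gene.

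Of 12 regulators of mitochondrial transcription and biogenesis, 6 were higher and 0 lower by edgeR, DESeq2 and limma-voom alike, with 6 higher and 0 lower at an unadjusted edgeR p under 0.05 and a median of 0.20. The share higher was 50%, beside 25.2% of all tested genes. ESRRA, a nuclear receptor that activates mitochondrial genes, had the largest rise (0.43, SE 0.0829, edgeR adjusted p 4.69e-05), and NRF1 the lowest value (-0.18, SE 0.0921, edgeR adjusted p 0.112). All 13 mRNAs that mitochondria encode, the templates of the mitoribosome, were higher, with a median of 0.45 and a range from 0.27 for MT-CYB (SE 0.0423) to 0.64 for MT-ND2 (SE 0.0424). The rRNAs of the mitoribosome had few counts in these poly(A) libraries, for a reason that was not tested. MT-RNR2 varied from 68 to 749 counts in control and from 105 to 383 in shMUC1, so no change could be read from these rRNAs. Cytosolic ribosomal proteins gave 12 higher (14.8%) and 21 lower (25.9%) of 81 tested, with a median of -0.033. RPL36A had their largest fall (-0.58, SE 0.134, edgeR adjusted p 0.000452) and RPL22 their largest rise (0.39, SE 0.0538, edgeR adjusted p 1.19e-07).

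**Figure D5:**
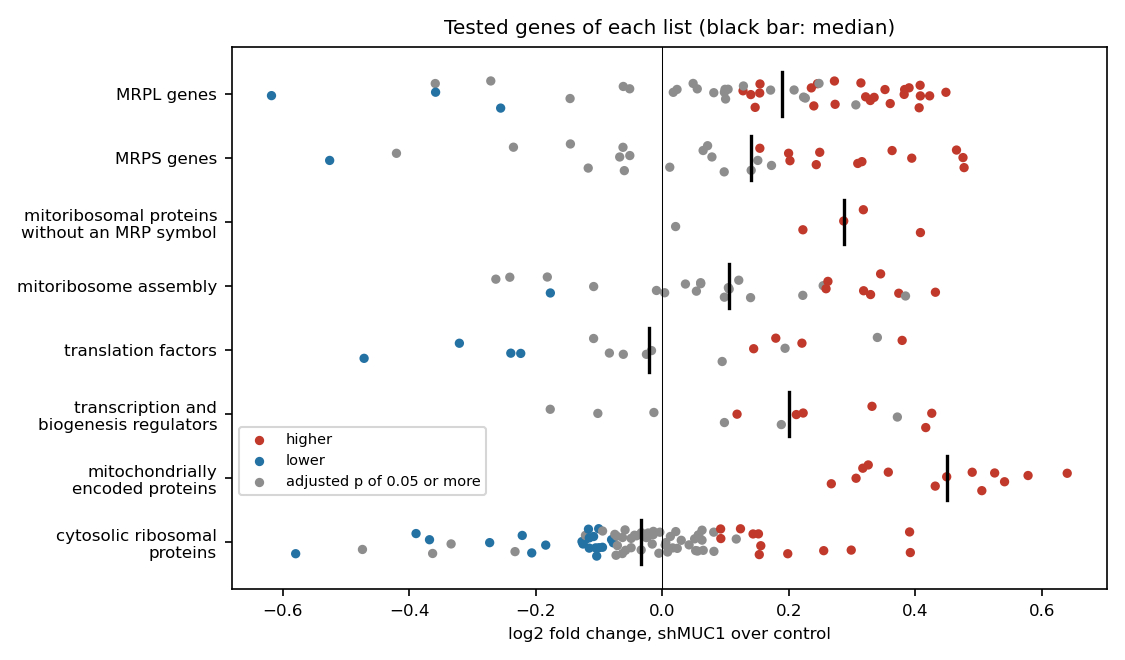
Log2 fold change of shMUC1 over control (x axis) for the tested genes of each list (y axis), with 1 point per gene coloured by its call at an adjusted p under 0.05 and a black bar at the median. The medians run from 0.45 for mitochondrially encoded proteins to -0.033 for cytosolic ribosomal proteins, with MRPL genes at 0.19 and MRPS genes at 0.14.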

How the data were processed

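RNA was measured in 6 stranded poly(A) libraries. The authors deposited 1 table of raw counts, with gene symbols as rows and a column for each library. The submitters' processing notes name CASAVA 1.8.2, STAR 2.7.9a, featureCounts, DESeq2 1.24.0 and the build GRCh38.p7, while counting options and annotation are not given in the sources used here. Among values from 1 to 20 counts, 69.9% were even, as happens where both mates of a read pair are counted, so halved counts were also tried. The labels describe cells cultured in triplicate. Chi-square divided by its degrees of freedom was 2.79 to 5.55 for library pairs of 1 group, and none was counted as a duplicate. Counting both mates would raise this ratio by itself, so it cannot show alone that the samples were separate cultures. The p-values measure the spread between these samples. Replicate numbers are shared by the groups but did not pair the libraries (correlations of deviations 0.0318, -0.0145 and -0.0314).

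Counts were tested two-sided with edgeR 4.0.16 (quasi-likelihood, TMM scaling, filterByExpr, group as the only term) in R 4.3.3, with Benjamini-Hochberg adjustment over the 15355 genes tested. CPM used TMM-scaled library sizes, and SE came from the F statistic. There were no molecular identifiers, so floors allow for counting error alone. Symbols of all 78 members matched GENCODE release 29 (GRCh38), from which exon lengths, exon overlaps and 3′ UTRs were taken. Promoters came from RefSeq (GRCh38.p14). Scripts were tested on simulated data.

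Members and lists were chosen with earlier results of these data known, and list membership was written from general knowledge. Genes were named by rule: the 8 largest rises and up to 8 largest falls among called members whose groups did not overlap, the 3 highest and 3 lowest per kilobase, a set fixed by role, members not tested, and the extremes of each other list. MRPL32, MRPL50, MRPS31 and MRPS11 were named after their values were seen. Alternatives were DESeq2 1.42.0, limma-voom (limma 3.58.1), other scaling, filters and thresholds, a replicate block, each library left out, halved counts, mitochondrially encoded genes left out, libraries drawn down, a GC content and length trend removed, and subunits by structure. Restricting to members with no exon overlap, or without ATCAGTA, was added after seeing the data.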

Additional observations from a re-analysis of the deposited data

How the results depend on the processing

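Under the 17 other fits, 24 of the 36 higher calls and 3 of the 4 lower calls were kept in every one. Members higher numbered 28 to 37, and members lower 3 to 5, over these fits. The replicate block gave 37 higher and 4 lower, with subunit medians of 0.20 and 0.14, and changed no count by over 1.5 times. DESeq2 gave 32 and 4, and limma-voom 36 and 4. Requiring a fold change over 2 left 0 members higher and 0 lower (0 large, 0 small), since no member reached it.

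Leaving out single libraries gave a small subunit median from 0.097 to 0.15 and a difference between subunits from 0.016 to 0.11 on the log2 scale. Removing a GC content and length trend gave a small subunit median of 0.091. In members with no exon overlap the large subunit median was 0.25 and the difference 0.093, where fewer members entered. Among the 22 named members that were called, 364 of 374 values under other fits kept direction and side of the threshold and 0 reversed. The 10 that lost the call belonged to MRPL14, MRPL32 and MRPS36. Among named members that were not called, MRPL3 gained a call in 2 fits and MRPL4 and MRPL23 in 1 each. Reversed signs were seen only in genes that were not called. Leaving out single libraries, MRPL38 ran from -0.61 to 0.028, MRPL45 from -0.34 to 0.073, MRPS18C from -0.083 to 0.094 and DAP3 from -0.020 to 0.043. With library totals only, MRPS18C was at -0.0097 and DAP3 at -0.00079, and with a mean of at least 50 counts MRPS18C was at -0.0062. The cause was not tested. Depth limits MRPS24, MRPL38 and MRPS28, with means of 23.5, 21.7 and 39.0 counts.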
